A study of Mus musculus with 12 samples.

Results

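The genes described here are 10 that act in the export, uptake and storage of cholesterol under the liver X receptors: Nr1h3 and Nr1h2, which encode the receptors LXRα and LXRβ, the exporters Abca1 and Abcg1, Mylip, Lpcat3 and Pltp, the lysosomal cholesterol carriers Npc1 and Npc2, and the lipid droplet coat gene Plin2. They were taken as a named list, found by gene symbol among the 55421 genes of the count table, and each of the 10 was present and passed the filter on low counts. RNA was sequenced from mouse brain microglia, the resident macrophages of the brain, after 6 h of oxygen-glucose deprivation (OGD), a laboratory model of ischaemia in which cells are held without oxygen and glucose. Cells were taken at once or after 24 h of recovery. The control genotype, called WT here, is the reporter line Cx3cr1EGFP, which carries EGFP at the fractalkine receptor gene. The knockout, called KO, is Slc2a5-/-::Cx3cr1EGFP, which carries the same reporter and lacks Slc2a5, the gene of the fructose transporter GLUT5. There were 4 groups of 3 libraries: WT-OGD and KO-OGD, taken at once, and WT-recovery and KO-recovery, taken a day later. Their animals are labelled male and P35 to P40 (postnatal day), and the reporter and the deprivation were common to the 4 groups, so no library shows the level of a gene without OGD. The labels give neither how OGD was applied nor whether libraries of a group came from separate animals, so p-values measure only the spread between these libraries, which may be technical. One WT-recovery library (replicate 1) carries a treatment field without recovery and was grouped by its title. Mitochondrial genes took 18.4% of its counts, against 7.35% and 7.998% in the other two of its group and 4.20% to 5.75% in the OGD libraries. Without it the same of the 10 genes were called in each comparison.

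Liver X receptors are nuclear receptors that bind DNA together with a retinoid X receptor and are switched on by oxysterols, oxidised forms of cholesterol. In macrophages they are known for raising the transporters that hand cholesterol and phospholipid to lipoproteins outside the cell, for lowering LDL receptor protein through the ubiquitin ligase encoded by Mylip, and for changing membrane phospholipids through Lpcat3. Cholesterol that microglia take up, for example with myelin debris, leaves the lysosome through the Npc2 and Npc1 proteins and is then exported, or esterified and stored in droplets coated by perilipins such as the product of Plin2.

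Libraries held 9885259 to 45347118 counts. Those of the OGD groups each had at least 31509859 and those of the recovery groups at most 19915479, so depth moved with time. Counts of the 10 genes ran from 143 in the shallowest case (Mylip) to 43692 (Npc2) per library. Slc2a5 had 45, 40 and 58 counts in WT-OGD against 17, 4 and 17 in KO-OGD, and no more than 2 counts in any recovery library. It therefore separates the genotypes after OGD and cannot check them after recovery. Xist, which is transcribed from the inactive X chromosome of female cells, had 4101 to 10232 counts in the 9 libraries of WT-OGD, KO-OGD and KO-recovery and 0, 3 and 0 in WT-recovery. The counts in those 9 libraries do not match the label male, and the sex of the animals is uncertain. Genotype after recovery, recovery in WT, and the test of whether the change over recovery differs by genotype each use WT-recovery. They therefore cannot be told apart from this Xist difference. The 10 microglial markers, such as Csf1r and Cx3cr1, were detected in every group and summed to 2711 ± 21.6 and 3110.0 ± 139 CPM (read counts scaled to library size, with TMM factors; mean ± SD, n = 3) in WT and KO after OGD, and to 4294 ± 696 and 5115 ± 357 CPM after recovery. The 11 astrocyte markers summed to 172 ± 31.1, 65.5 ± 13.01, 298 ± 15.5 and 123 ± 32.4 CPM in the same order. The sum was lower in KO at both times without overlap, and Gjb6 was at 0 in KO-OGD and WT-recovery. Of 10 astrocyte markers tested, 10 were called lower in KO after OGD and 8 after recovery, and 0 higher. Over recovery in WT 3 were called higher and 2 lower. Atp1b2 there went from 16.1 to 118 CPM (group means), so the rise of the sum does not stand for each marker. The 5 border macrophage markers summed to 755 ± 18.98, 780.1 ± 48.7, 979.8 ± 169.7 and 1263 ± 64.8 CPM. After OGD 0 of the 5 were called by genotype. After recovery 2 were called higher and 0 lower in KO (median log2 fold change 1.82). Over recovery 3 were called higher and 1 lower in WT, and 3 higher and 0 lower in KO (medians 1.13 and 3.19). The difference between these changes passed for 2. The part of border macrophages in the genotype differences given below was not tested. Over recovery, summed markers of other cells were higher. Monocyte markers went from 20.95 to 243 CPM in WT and from 24.1 to 241 in KO. Endothelial ones went from 9.53 to 70.5 and from 10.6 to 125. Oligodendrocyte lineage ones went from 63.0 to 229 and from 72.5 to 163. These are group means, with Plac8 and Cldn5 at 0 except in KO-recovery. Of 3 endothelial markers tested, 1 was called higher in each genotype, with a median log2 fold change of -0.11 in WT and 0.40 in KO. Of 4 monocyte markers, 2 were tested and called higher in each genotype. S100a4, 1 of these 2, shares 51.7% of its exon bases with a gene on its own strand. Of 10 oligodendrocyte lineage markers, 10 were called higher in WT and 8 in KO. The part of these cells in the changes over recovery given below was not tested. Transcripts of muscle and connective tissue summed to 127, 5.55 and 115 CPM in KO-recovery replicates 1, 2 and 3 and to at most 3.08 CPM in any other library.

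Promoters of 8 of the 10 genes were found in RefSeq on GRCm38 and searched over the 250 bases before the start; Abcg1 and Npc1 were not matched. The search used the DR4 motif, a direct repeat of the nuclear receptor half-site with 4 free bases between its copies and the form bound by LXR with its partner, and the DR1 motif, the same repeat with 1 free base, bound by PPAR with the same partner, on both strands. The Abca1 and Plin2 promoters are shown because each held a match within the mismatches allowed, given in capitals, both on the strand opposite to the one printed, which runs 5′ to 3′ in the direction of the gene.
Abca1 (chr4:53159896-53160145, minus strand): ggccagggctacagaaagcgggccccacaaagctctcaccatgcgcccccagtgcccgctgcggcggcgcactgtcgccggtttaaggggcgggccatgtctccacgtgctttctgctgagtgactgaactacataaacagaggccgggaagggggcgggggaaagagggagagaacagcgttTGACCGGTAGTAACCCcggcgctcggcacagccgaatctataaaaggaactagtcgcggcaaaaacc
Plin2 (chr4:86670060-86670309, minus strand): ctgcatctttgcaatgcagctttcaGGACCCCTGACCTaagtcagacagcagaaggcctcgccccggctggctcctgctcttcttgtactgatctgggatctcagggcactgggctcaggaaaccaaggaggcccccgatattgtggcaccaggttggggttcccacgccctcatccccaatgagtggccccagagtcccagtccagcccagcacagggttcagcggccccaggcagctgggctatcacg
The Abca1 match lies 67 to 52 bases before the start and departs from DR4 at 3 of its fixed bases; 18.5% of 32851 promoters of this length hold a match that close. At 2 mismatches, a limit that 2.57% of promoters met, none of the 8 held DR4, and the wider limit was set after that scan. The Plin2 match lies 225 to 213 bases before the start with 2 mismatches to DR1, a limit met by 3.24% of promoters. The lysosomal gene motif CLEAR and the sterol regulatory element SRE were searched too, with 1 mismatch allowed (met by 1.44% and 1.65% of promoters), and 0 of the 8 held either. No other promoter of the 8 held DR4 or DR1 at these limits, which says only that the letters are not in this window. These are matches of letters only and were not tested as binding sites.

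Per kilobase of exon, Npc2 was the most abundant of the 10, at a group mean of 167 to 193 CPM per kb, and Plin2 followed at 103 to 119. Abcg1 ranged from 30.5 to 56.7 CPM per kb and Npc1 from 17.1 to 37.7. Pltp, Lpcat3, Nr1h2 and Abca1 had overlapping ranges between 10.4 and 23.1 CPM per kb. Mylip (6.2 to 12.4) and Nr1h3 (4.76 to 8.10) were the lowest.

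**Figure D1:**
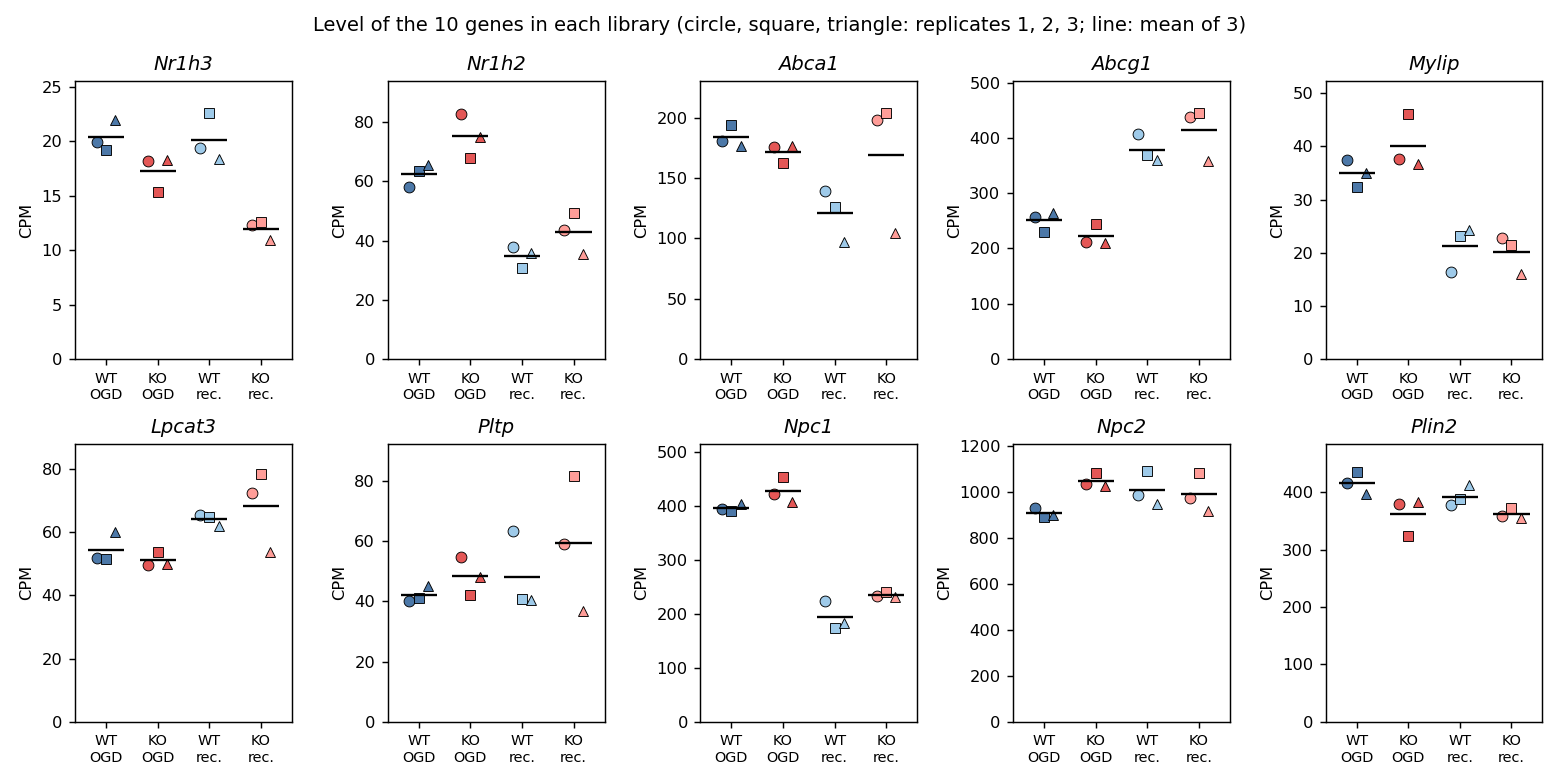
CPM of each of the 10 genes (one panel per gene, linear axis from 0) in the 4 groups, with one point per library, marker shape for the replicate number and a line at the mean of 3. Abcg1 sits higher and Nr1h2, Mylip and Npc1 sit lower in both recovery groups than in both OGD groups, Nr1h3 is lowest in KO-recovery, and Plin2 stays between 323 and 435 CPM.

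More of the 10 genes passed the test between times than between genotypes. From OGD to recovery in WT, 5 of the 10 passed the threshold (adjusted p below 0.05, edgeR's quasi-likelihood test with Benjamini-Hochberg adjustment over 18842 genes): Abcg1 rose, and Abca1, Nr1h2, Mylip and Npc1 fell. Of all genes tested 56.8% passed in this comparison (26.9% higher and 29.9% lower), so the 5 of 10 lie near the background. In KO, 6 of the 10 passed, against 59.0% of all genes (29.3% higher and 29.6% lower): Abcg1 and Lpcat3 rose, and Nr1h3, Nr1h2, Mylip and Npc1 fell. The median log2 fold change of the 10 was -0.05 in each genotype, and that of all genes -0.03 in WT and 0.00 in KO. Groups did not overlap for 7 of the 10 genes in WT, against 67.1% of all genes, and for 5 in KO, against 61.2%.

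Genotype differences were fewer. Right after OGD none of the 10 passed in edgeR's quasi-likelihood test, where 7.49% of all genes did (0.966% higher and 6.52% lower in KO); 4 had an unadjusted p under 0.05 (Nr1h3, Nr1h2, Npc2 and Plin2), and DESeq2 called 1, Npc2. Groups did not overlap for 6 of the 10, against 30.4% of all genes. After recovery 2 of the 10 passed, against 22.2% of all genes (10.1% higher and 12% lower in KO): Nr1h3 was lower and Npc1 higher in KO. Groups did not overlap for 3, Nr1h3, Npc1 and Plin2, against 33.5% of all genes. The test of whether the change over recovery differed between genotypes passed for none of the 10, against 5.25% of all genes (2.89% higher and 2.36% lower); 1 of them had an unadjusted p under 0.05 and DESeq2 called 1, in both cases Nr1h3. The comparisons share groups: each group enters a genotype comparison and a recovery comparison, so they are not independent of each other.

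**Figure D2:**
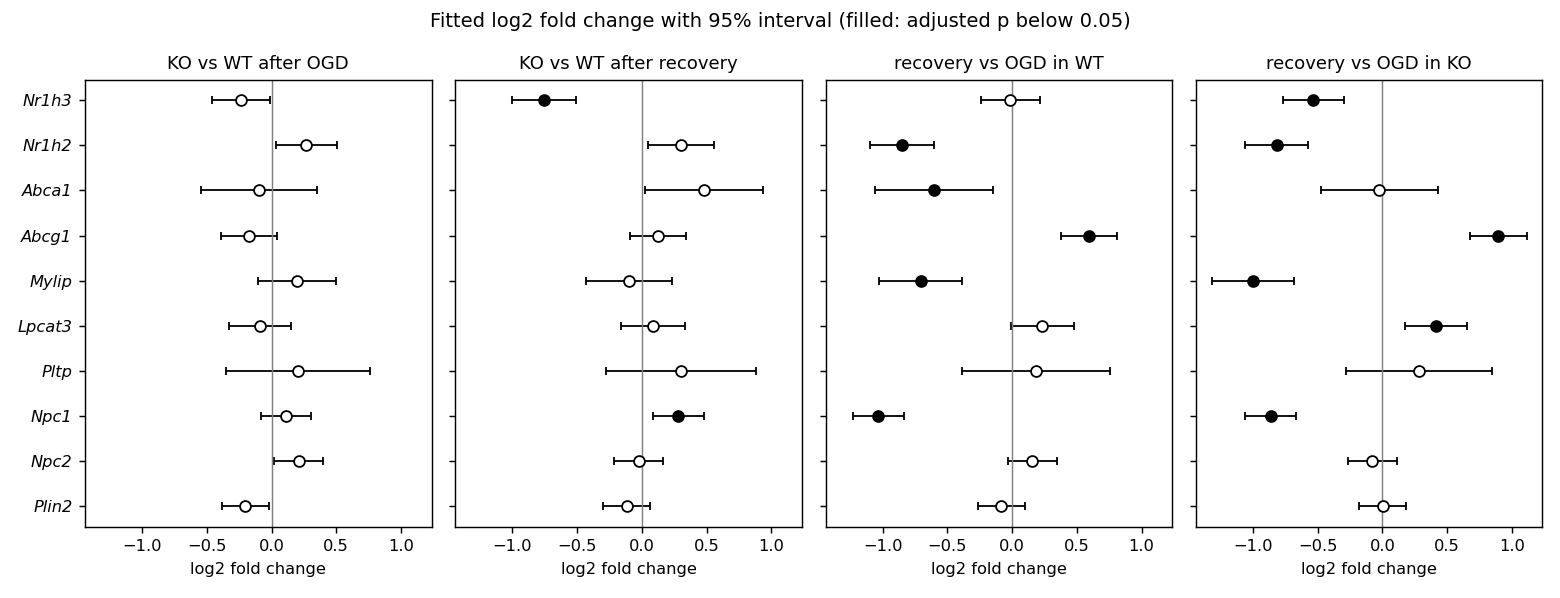
Log2 fold change of each of the 10 genes in the 4 comparisons, with bars for the 95% interval and filled points where the adjusted p is below 0.05. The intervals of Abcg1 lie above 0 and those of Nr1h2, Mylip and Npc1 below 0 in both recovery comparisons, and among the genotype comparisons only Nr1h3 and Npc1 after recovery are filled.

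The receptor genes followed different courses (gene positions here and below are whole gene spans on GRCm38). Nr1h3 (ENSMUSG00000002108.10, chr2:91184061-91202834), which encodes LXRα, the form enriched in macrophages and liver, stood after OGD at 19.96, 19.2 and 21.9 CPM in WT against 18.2, 15.3 and 18.3 in KO. After recovery it stood at 19.4, 22.6 and 18.3 CPM in WT against 12.3, 12.6 and 10.98 in KO. The 3 KO-recovery libraries were below the other 9, and WT-OGD and WT-recovery overlapped. Nr1h3 was lower in KO after recovery by 0.76 on the log2 scale (log2 fold change -0.76, SE 0.12, adjusted p = 3.41e-04). The same difference right after OGD was -0.24 (95% interval -0.46 to -0.02, adjusted p = 0.235). Over recovery Nr1h3 fell in KO (log2 fold change -0.53, SE 0.11, adjusted p = 7.14e-04), while the value in WT was -0.01 (-0.24 to 0.22). The difference between those changes was -0.52 (SE 0.15) and did not pass (adjusted p = 0.0660); 5 of 20 alternatives called it. In bulk RNA, fewer cells of a type and less RNA per cell cannot be told apart. Astrocyte markers moved with the genotype difference, at 301, 312 and 282 CPM in WT-recovery against 135, 148 and 86.7 in KO-recovery. With their summed level as a covariate, Nr1h3 after recovery had a log2 fold change of -0.36 and an adjusted p of 0.342. Under the other 20 alternatives it remained called. The sum separates the genotypes at each time and the times in each genotype. Such a fit therefore has little room to separate marker level from genotype or time. With it 1764 of all genes were called after recovery, against 4175 without it.

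Nr1h2 (ENSMUSG00000060601.13, chr7:44549616-44553951) encodes LXRβ, the form found in nearly every tissue. WT libraries held 58.2, 63.4 and 65.6 CPM after OGD against 37.8, 30.8 and 35.6 after recovery. KO libraries held 82.8, 67.9 and 74.9 CPM after OGD against 43.7, 49.2 and 35.5 after recovery. Each recovery library was below each OGD library. Nr1h2 fell over recovery by 0.85 on the log2 scale in WT (SE 0.12, adjusted p = 1.92e-05) and by 0.82 in KO (SE 0.11, adjusted p = 2.04e-05), called under every one of 21 alternatives. The KO libraries were all above WT after OGD (log2 fold change 0.27, adjusted p = 0.195), which did not pass. After recovery the KO difference was 0.30 (adjusted p = 0.0833), with KO replicate 3 inside the WT range. It passed without that library (0.42, adjusted p = 0.00960), without KO-recovery replicates 1 and 3, which leaves 1 library (0.51, adjusted p = 0.0177), with no low-count filter (0.32, adjusted p = 0.0260) and with the astrocyte covariate (0.76, adjusted p = 0.0358). A pseudogene copy, Nr1h2-ps, had 0 counts in every library.

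The ratio of Nr1h2 to Nr1h3, each per kilobase, puts both receptors on one scale. After OGD it was 2.19, 2.48 and 2.24 in WT against 3.41, 3.33 and 3.07 in KO. After recovery it was 1.46, 1.02 and 1.46 in WT against 2.66, 2.93 and 2.43 in KO. KO libraries lay above WT libraries at both times with no overlap, and within each genotype the ratio was lower after recovery than after OGD with no overlap. It is given as a description, with no test.

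**Figure D3:**
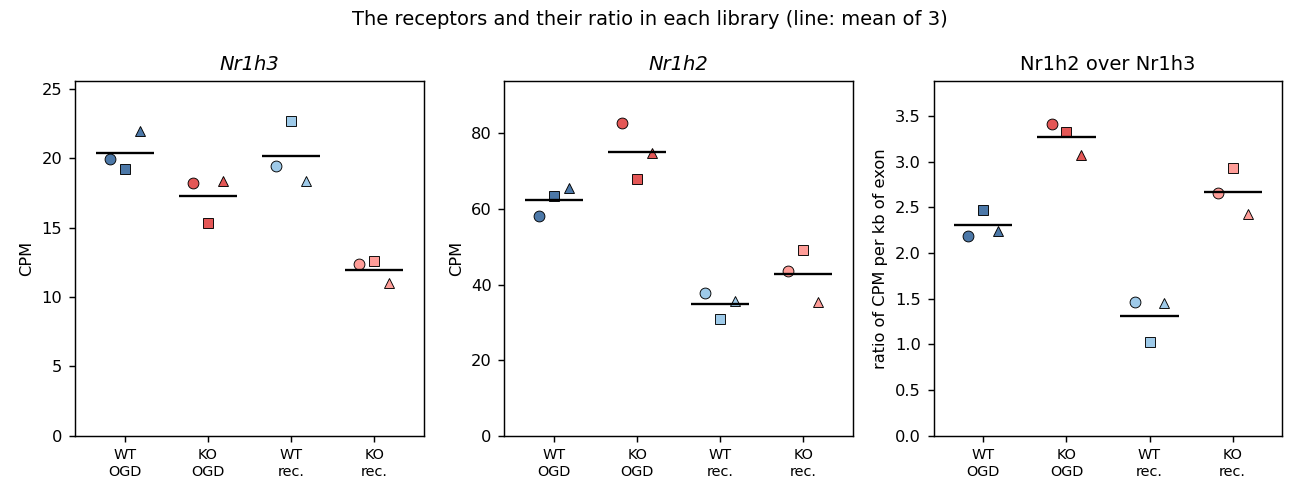
CPM of Nr1h3 and Nr1h2 and the ratio of their CPM per kilobase in each of the 12 libraries, with lines at the group means and axes from 0. The ratio is higher in the KO libraries (2.43 to 3.41) than in the WT libraries of the same time, and Nr1h3 in KO-recovery (10.98 to 12.6 CPM) lies below all other libraries.

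The exporters differed in their course. Abca1 (ENSMUSG00000015243.4, chr4:53030787-53159895), which loads cholesterol and phospholipid onto lipid-poor apolipoproteins, stood at 181, 194 and 177 CPM in WT after OGD against 176, 163 and 176 in KO. After recovery the WT libraries held 139.5, 126 and 96.96 CPM against 198, 204 and 104 in KO. The WT-recovery libraries were all below the OGD libraries of either genotype, whereas the KO-recovery libraries were spread on both sides, with replicate 3 at about the WT-recovery level. Abca1 fell over recovery in WT (log2 fold change -0.61, SE 0.21, adjusted p = 0.0263). That call ended without any one of WT-OGD replicates 1, 2 and 3 or WT-recovery replicates 2 and 3 (adjusted p 0.05003 to 0.0905). In KO the value was -0.03 (-0.48 to 0.43, adjusted p = 0.925). The genotype difference after recovery was 0.48 (0.02 to 0.94, adjusted p = 0.123) and after OGD -0.10 (-0.55 to 0.35, adjusted p = 0.873); neither passed. The recovery difference passed under 4 of 21 alternatives: 0.73 without KO-recovery replicate 3 (adjusted p = 2.67e-04), 0.76 without replicates 1 and 3, which leaves 1 library (0.00299), 0.50 with no low-count filter (3.25e-05) and 1.42 with the astrocyte covariate (0.0271). Without replicate 3 the difference between the changes over recovery was 0.83 (adjusted p = 0.00349) in place of 0.58 (adjusted p = 0.293).

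Abcg1 (ENSMUSG00000024030.7, chr17:31057675-31117988) encodes the transporter that passes cholesterol to mature HDL particles. WT libraries held 257, 229.8 and 265 CPM after OGD against 406, 369 and 361 after recovery. The KO values were 211, 245 and 210.5 CPM after OGD against 438, 445 and 357 after recovery. The lowest recovery library lay above the highest OGD library. Abcg1 rose by 0.59 on the log2 scale in WT (SE 0.10, adjusted p = 1.52e-04) and by 0.90 in KO (SE 0.10, adjusted p = 2.63e-06) and was called under every alternative. Its genotype differences were -0.17 (-0.39 to 0.04) after OGD and 0.13 (-0.09 to 0.34) after recovery, with adjusted p of 0.410 and 0.400, and groups overlapped both times. In WT the 2 exporters thus moved in opposite directions over recovery.

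Mylip (ENSMUSG00000038175.10, chr13:45389742-45412022), whose product IDOL marks the LDL receptor for degradation, fell in both genotypes. Levels in WT were 37.4, 32.4 and 35.1 CPM after OGD against 16.3, 23.1 and 24.2 after recovery. Levels in KO were 37.6, 46.04 and 36.8 CPM after OGD against 22.7, 21.5 and 15.96 after recovery. OGD and recovery libraries did not overlap. The log2 fold change was -0.71 in WT (SE 0.15, adjusted p = 9.83e-04) and -1.002 in KO (SE 0.15, adjusted p = 4.16e-05), each called under every alternative. The genotype differences, 0.20 after OGD and -0.10 after recovery, did not pass (adjusted p = 0.528 and 0.693).

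Lpcat3 (ENSMUSG00000004270.13, chr6:124663027-124704418) encodes the acyltransferase that puts polyunsaturated chains on phosphatidylcholine. Levels in WT were 51.8, 51.4 and 60.1 CPM after OGD against 65.3, 64.8 and 62.1 after recovery. Levels in KO were 49.6, 53.8 and 49.9 CPM after OGD against 72.5, 78.5 and 53.6 after recovery. WT groups did not overlap, while KO-recovery replicate 3 lay within the KO-OGD range. Lpcat3 rose in KO (log2 fold change 0.41, SE 0.11, adjusted p = 0.00569), a call that ended with the astrocyte marker level as covariate (0.02, adjusted p = 0.935). The WT value of 0.23 (-0.01 to 0.48, adjusted p = 0.0952) did not pass, and the difference between the changes, 0.18 (-0.16 to 0.52), did not either. Lpcat3 shares 10.2% of its exon bases with Emg1 on the opposite strand, and the strand setting of the counting is not given in the sources used here, so its counts are uncertain to that extent.

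Pltp (ENSMUSG00000017754.13, chr2:164839518-164857711) encodes the secreted protein that moves phospholipid between lipoproteins. WT libraries held 40.1, 40.99 and 45.1 CPM after OGD against 63.2, 40.8 and 40.5 after recovery. The KO values were 54.7, 42.1 and 48.2 CPM after OGD against 59.1, 81.7 and 36.9 after recovery. Groups overlapped in each comparison, and none passed. Their log2 fold changes ran from 0.18 to 0.30, with SE of 0.25 to 0.26 and adjusted p of 0.359 to 0.760. Without KO-recovery replicate 3 the change over recovery in KO was 0.52 and passed (adjusted p = 0.0404). Pltp shares 19.3% of its exon bases with Ctsa on the opposite strand, a lysosomal protease gene with 566673 counts over the 12 libraries against 15211 for Pltp, so reads of the pair may not be separated. Ctsa stood after recovery at 1748, 1259 and 1347 CPM in WT against 2152, 2609 and 1498 in KO, with the highest and lowest libraries of each group the same as for Pltp in KO and the highest the same in WT.

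**Figure D4:**
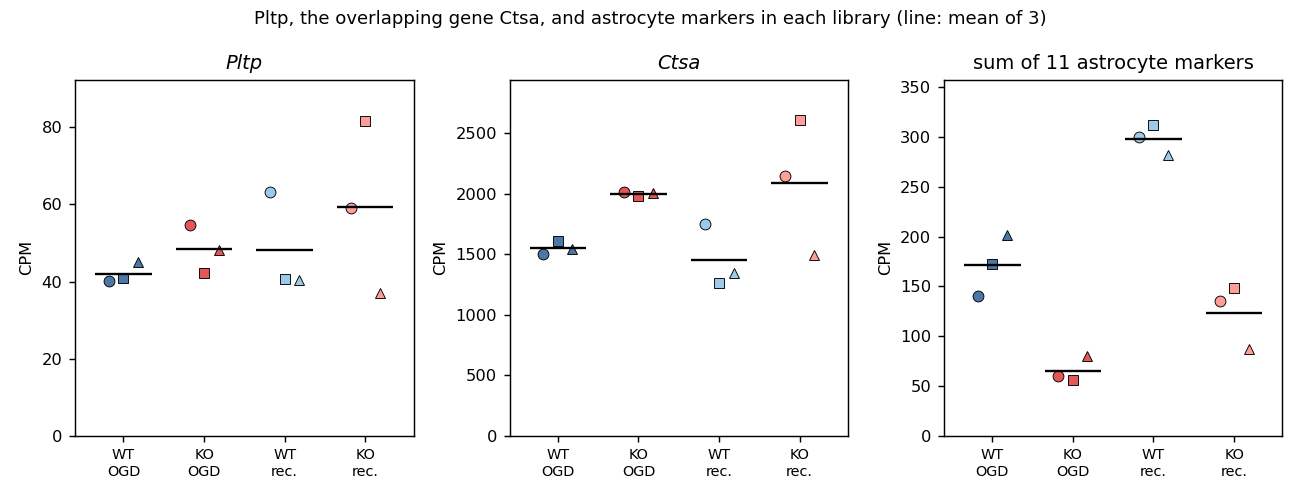
CPM of Pltp, CPM of the overlapping gene Ctsa and the summed CPM of the 11 astrocyte markers in each of the 12 libraries, with lines at group means and axes from 0. In KO-recovery, replicate 2 is the highest and replicate 3 the lowest for Pltp and for Ctsa, and the astrocyte sum is lower in KO than in WT at both times.

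The lysosomal cholesterol carriers also parted. Npc1 (ENSMUSG00000024413.14, chr18:12189692-12236400), the membrane protein that passes cholesterol out of the lysosome, measured after OGD 394, 389 and 402 CPM in WT against 421, 454 and 406 in KO. After recovery it measured 223, 173 and 183 CPM in WT against 232, 241 and 231 in KO, with each recovery library below each OGD library. Npc1 fell by 1.03 on the log2 scale in WT (SE 0.09, adjusted p = 2.62e-07) and by 0.86 in KO (SE 0.09, adjusted p = 1.35e-06), the lowest adjusted p among the 10 genes in each genotype, and was called under every alternative. After recovery Npc1 was higher in KO by 0.28 (SE 0.09, adjusted p = 0.0394), with no overlap. That call was close to the threshold: it held in 11 of 21 alternatives, and adjusted p was 0.111 when only the 6 libraries compared were fitted and 0.473 with the astrocyte covariate. It also ended without any one of KO-OGD replicates 1 and 3, WT-recovery replicates 2 and 3 or KO-recovery replicates 1 and 2 (0.0514 to 0.199). After OGD the difference was 0.11 (-0.08 to 0.31, adjusted p = 0.596). Exons of Rmc1, on the opposite strand, cover 4.52% of the exon bases of Npc1.

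Npc2 (ENSMUSG00000021242.9, chr12:84754562-84773152), the soluble carrier that hands cholesterol to the Npc1 protein, passed in no comparison. WT libraries held 931, 891 and 899 CPM after OGD against 988, 1090.0 and 948 after recovery. The KO values were 1034, 1083 and 1027 CPM after OGD against 973, 1084 and 919 after recovery. The KO-OGD libraries were above the WT-OGD ones, by 0.21 on the log2 scale (0.02 to 0.40, adjusted p = 0.217). Over recovery its values were 0.15 (-0.04 to 0.34, adjusted p = 0.153) in WT and -0.08 (-0.27 to 0.11, adjusted p = 0.457) in KO, intervals that do not reach the fall of Npc1.

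Plin2 (ENSMUSG00000028494.12, chr4:86648386-86670060), whose product coats droplets and is widely used as their marker, was high in every group and passed in no comparison. WT libraries held 416, 435 and 398 CPM after OGD against 378, 388 and 413 after recovery. The KO values were 379, 323 and 383 CPM after OGD against 359, 373 and 356 after recovery. The KO libraries lay below the WT libraries at each time with no overlap. The differences were small: -0.20 after OGD (-0.38 to -0.02, adjusted p = 0.205) and -0.12 after recovery (-0.30 to 0.07, adjusted p = 0.357). Over recovery the values were -0.08 (-0.26 to 0.10) in WT and 0.00 (-0.18 to 0.18) in KO, intervals that do not reach the rise of Abcg1 or the fall of Npc1 in the same genotype.

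Other genes of the pathway were read from 8 lists of 79 genes, of which 71 passed the filter on low counts. Over recovery 27 rose and 20 fell in WT and 25 rose and 22 fell in KO, 66.2% of those tested in each case. After OGD 5 were lower and 0 higher in KO (7.04%), and after recovery 7 were higher and 12 lower (26.8%). These shares stand beside 56.8%, 59.0%, 7.49% and 22.2% of all genes. Their counts are uncertain where exons are shared: Mgll, Ncor1, Gramd1b and Bscl2 share exon bases with a gene on the opposite strand (3.29% of them in Mgll and 6.75% in Bscl2), Abcg5 and Abcg8 with each other, Scd2 with a miRNA gene on its own strand, and Apoc2 shares 79.5% with a gene on its own strand. Astrocyte markers were lower in KO at both times. With their summed level as a covariate, none of the 5 calls after OGD was made (Angptl4 had an adjusted p of 0.268 and Vldlr of 0.722). With this covariate 86 of all genes were called after OGD, against 1411 without it, and 1764 after recovery, against 4175. After recovery 8 pathway genes were called with it; of those named below with a genotype difference, Smpdl3a remained called (-1.12, adjusted p = 0.00256), while Lpl, Msr1, Vldlr, Stard3, Gramd1b, Hilpda, G0s2, Angptl4, Lpcat4 and Cyp46a1 did not (adjusted p from 0.0738 to 0.964).

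Among 6 partners and coregulators of the receptors, 1 rose and 4 fell over recovery in each genotype. The gene that rose was not the same in both. Ncoa1 was not called in WT (log2 fold change 0.14, adjusted p = 0.128). Rxra, the gene of a retinoid X receptor, was not called in KO (0.28, adjusted p = 0.0685). Nrip1, a corepressor gene, fell by 1.15 in WT and 1.01 in KO (log2 scale), and Ncor1, the gene of the nuclear receptor corepressor, fell by 0.53 and 0.47. Of 5 oxysterol enzyme genes, 4 rose in WT and 1, Cyp27a1 (sterol 27-hydroxylase), rose in KO (log2 fold change 1.82, adjusted p = 1.19e-05). The difference between the changes passed for 0 of these 5. After recovery Cyp46a1, known as the neuronal 24-hydroxylase, was lower in KO by 1.90 (adjusted p = 0.00469). The call rested on 22, 32 and 23 counts in WT-recovery against 13, 11 and 3 in KO-recovery. Astrocyte markers were lower in KO in the same libraries, 8 of 10 tested, and neuron markers in 4 of 9. With the astrocyte covariate Cyp46a1 had a log2 fold change of 0.17. The part of other cells in the Cyp46a1 difference was not tested.

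Of 11 other LXR target genes tested, 6 rose and 2 fell over recovery in WT, and 6 rose and 1 fell in KO; Abcg5 and Abcg8 did not pass the filter. Scd2, a fatty acid desaturase gene, rose by 1.46 in WT and 2.02 in KO. Lpl, the lipoprotein lipase gene, rose from 2574, 2458 and 2817 to 5586, 4263 and 4152 CPM in WT and from 2942, 3131 and 2995 to 6772, 7594 and 7407 in KO. After recovery Lpl was higher in KO with no overlap (log2 fold change 0.64, SE 0.12, adjusted p = 0.00127). Smpdl3a, which encodes a secreted phosphodiesterase, went the other way: WT libraries held 315, 301 and 288 CPM after OGD against 172, 183 and 167 after recovery, and KO libraries 344, 398 and 346 against 104, 103 and 136. It fell by 0.79 in WT and 1.67 in KO, and the difference between these falls passed (log2 -0.87, SE 0.15, adjusted p = 0.00392). Apoe, the most abundant of this list among those not called, had after recovery 2305, 2799 and 2669.5 CPM in WT against 3364, 4405 and 1588 in KO, so replicate 3 of KO lay below and the others above WT.

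Lipoprotein uptake genes split as well. Of 9 tested, 3 rose and 1 fell over recovery in each genotype. Msr1, the class A scavenger receptor gene, rose by 1.14 in WT and 1.37 in KO and was higher in KO after recovery by 0.36 (adjusted p = 0.0129; 0.0702 without WT-recovery replicate 3). Lrp8, an ApoE receptor gene, fell by 0.98 and 1.48. Vldlr was lower in KO after OGD (-1.12, adjusted p = 0.0242) and after recovery (-1.71, adjusted p = 0.00166), at 1.47 to 8.79 CPM per library; the call after OGD ended without any one of WT-OGD replicates 2 and 3 or KO-OGD replicates 2 and 3 (0.0939 to 0.130).

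Among 9 genes of lysosomal and intracellular sterol handling, 1 rose and 3 fell over recovery in WT, and 1 rose and 5 fell in KO. Nceh1, which hydrolyses cholesteryl esters, fell by 1.06 and 0.98, and Soat1, which makes them, by 0.59 and 0.52. After recovery Stard3 (0.32) and Gramd1b (0.30), both genes of cholesterol transfer between membranes, were higher in KO (adjusted p = 0.0332 and 0.0337). Both calls ended with only the libraries compared and without any one of WT-recovery replicate 3 or KO-recovery replicates 1 and 2 (0.0766 to 0.165), and Gramd1b also without WT-recovery replicate 2 (0.183). Lipa, the lysosomal acid lipase gene and the most abundant of those not called, had 991 ± 115 CPM in WT-recovery and 1226 ± 87.96 in KO-recovery (mean ± SD, n = 3).

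Of 15 further droplet genes tested, 2 rose and 6 fell over recovery in WT, and 4 rose and 6 fell in KO. Mgll, the monoacylglycerol lipase gene, went from 745, 797 and 801 to 201, 179 and 199 CPM in WT and from 988, 935 and 988 to 167, 203 and 143 in KO, a fall by 2.02 and 2.51 on the log2 scale (adjusted p = 1.81e-09 and 2.30e-10). Hilpda and G0s2, both genes of inhibitors of the triglyceride lipase ATGL, differed by genotype after recovery in opposite directions. Hilpda was higher in KO by 0.37 (adjusted p = 0.0426) and G0s2 lower by 2.24 (adjusted p = 0.00555). G0s2 stood at 0.149 to 1.41 CPM per recovery library, so its estimate rests on few counts: 5, 9 and 19 in WT-recovery against 3, 3 and 3 in KO-recovery. The Hilpda call held in 9 of 21 alternatives and ended without any one of KO-OGD replicates 1 and 3, WT-recovery replicates 2 and 3 and KO-recovery replicates 1, 2 and 3 (0.0550 to 0.203).

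Of 7 PPAR receptor and target genes tested, 2 rose and 4 fell over recovery in WT, and 3 rose and 4 fell in KO. Angptl4, a secreted lipoprotein lipase inhibitor gene, rose by 2.01 in WT and 2.13 in KO. It was lower in KO at both times, by 1.14 after OGD (adjusted p = 0.00221) and 1.01 after recovery (adjusted p = 0.00100), with no overlap. Fabp4, a fatty acid carrier gene, fell by 1.46 and 1.32. Of 9 relatives of the member families, 8 rose over recovery in WT, and 6 rose and 1 fell in KO: Abca9 rose by 1.27 and 1.23, and Lpcat4 rose by 1.64 and 1.29 and was lower in KO after recovery by 0.74 (adjusted p = 0.0113; 0.0578 without KO-recovery replicate 1).

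**Figure D5:**
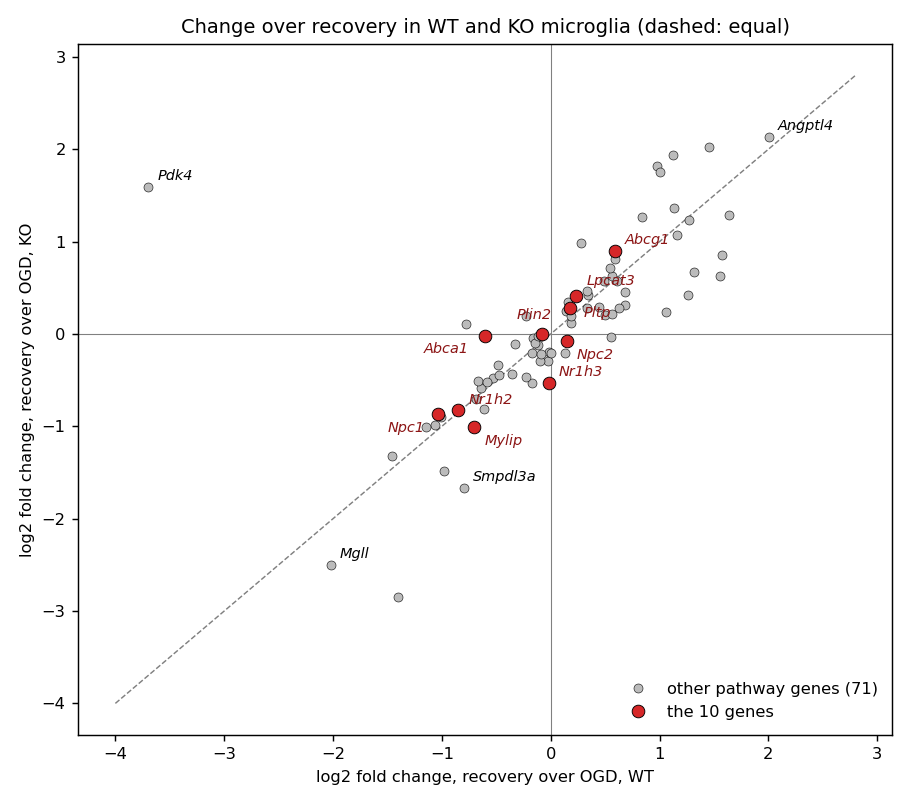
Log2 fold change from OGD to recovery in WT (horizontal axis) and KO (vertical axis) for the 10 genes (red) and 71 other pathway genes (grey), with a dashed line of equal change. Abcg1 lies at 0.59 and 0.90, Npc1 at -1.03 and -0.86, and Nr1h3 below the line at -0.01 and -0.53; Pdk4, at the left, rests on few counts, with a WT-recovery total of 3.

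For the 5 genes called in at least 2 of the 4 comparisons, the most similar profile over the 12 libraries was sought among 11426 genes with a mean of at least 5 CPM, by the root mean square difference of centred log2 CPM. Abcg1 was nearest to Rassf4 (0.07) and Fhod1 (0.08), a small distance beside its own range of 1.08 log2 units. Npc1 was nearest to Cln8 (0.08), Nr1h2 to Ift88 (0.09), Nr1h3 to Afap1 (0.12) and Mylip to Nkiras2 (0.14). Among the 10 genes themselves, Nr1h2 and Npc1 were each other's nearest (0.15), Abcg1 was nearest to Lpcat3 (0.23), Mylip to Nr1h2 (0.27) and Nr1h3 to Plin2 (0.27). The libraries share group, depth and time, so the distances are descriptions of this set only.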

How the data were processed

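Microglial RNA was sequenced in 12 libraries, 3 per group. The deposited table holds the authors' raw counts for each gene; per the submitters' processing notes reads were aligned with HISAT2 to GRCm38 and counted with featureCounts, and the versions, annotation and strand setting are not given in the sources used here. Gene identifiers were matched to GENCODE symbols ignoring the version (55240 of 55421). Per the labels' protocols, libraries used a stranded total RNA kit, while the molecule field gives polyA RNA.

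Counts were tested with edgeR 4.0.16 in R 4.3.3 (TMM scaling, filterByExpr, robust quasi-likelihood fit, 1 mean per group over the 12 libraries), with Benjamini-Hochberg adjustment over 18842 genes and a threshold of 0.05. CPM use TMM-scaled library sizes. The model was tested on simulated data. The 21 alternatives included DESeq2 1.42.0, other scaling and filters, each library left out, equal depth and an astrocyte marker covariate. The 10 genes, the lists and the tests were chosen with earlier results of these data known. Named from each pathway list were up to 3 called genes per comparison with the largest log2 fold change whose groups do not overlap, and the most abundant uncalled gene. A gene named for 1 comparison may be shown in others, and some genes the rule names are not reported here. For profile likeness, the 1 or 2 nearest genes were named.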

Additional observations from a re-analysis of the deposited data

Results flagged for a closer look

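The change over recovery differed between genotypes for Smpdl3a (log2 difference -0.87, adjusted p = 0.00392 in edgeR's quasi-likelihood test, n = 3 libraries a group), with the deeper fall in KO. The call held under each of 20 alternatives. Like each test that uses WT-recovery, it cannot be told apart from the Xist difference of that group. Pdk4, the pyruvate dehydrogenase kinase gene listed under PPAR targets, had a log2 difference of 5.29 (adjusted p = 0.0112) from few reads: 130 counts over the WT-OGD libraries, 25 in KO-OGD, 3 in WT-recovery and 37 in KO-recovery. The KO-recovery level was 9.33 times that of WT-recovery (exact 95% interval 2.96 to 47.3, counting error only). KO-recovery replicates 1, 2 and 3 had 1.09, 0 and 0.803 CPM of Pdk4 beside 127, 5.55 and 115 CPM of muscle and connective tissue transcripts. The part of those transcripts in the result was not tested.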

How the results depend on the processing

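Of 13 called results for the 10 genes, 9 were called under every alternative run and the 13 kept their direction. The number of the 10 called KO against WT after OGD was 0, and 1 with DESeq2, with no low-count filter or with only the libraries compared (0 to 0 when single libraries were left out). After recovery it was 2, and 5 with no filter, 1 when fitted on only those compared, 1 with the replicate block and 4 without KO-recovery replicates 1 and 3 together (1 to 4 without single libraries); leaving out both keeps 1 KO-recovery library, assumed to vary like the other groups. With the astrocyte covariate it was again 2, but Abca1 and Nr1h2, both higher, in place of Nr1h3 and Npc1. Recovery gave 4 to 6 calls in WT and 6 to 7 in KO without single libraries. For the difference between the changes it was 0, and 2 with no filter and 1 with DESeq2, with the astrocyte covariate, without those 2 libraries or without mitochondrial genes (0 to 1). Pathway calls after OGD, 5, became 11 with no filter, 11 when fitted on only those compared, and 0 with the covariate (1 to 11). Calls over all genes went from 1411 to 2148, 1919 and 86 in the same order. After recovery, 19 pathway calls became 30 with no filter, 8 with the covariate and 8 when fitted on only those compared (10 to 27). All-gene calls there went from 4175 to 4980, 1764 and 2756. The 2 differences between changes became 4 with DESeq2, 11 with no filter, 1 at equal depth and 4 with the covariate (2 to 8). Over all genes these went from 989 to 1517, 1980, 572 and 1350. The pathway counts thus rose and fell with those of all genes under these settings. The sign turned with the covariate for Cyp7b1 (0.60) and Scd1 (0.13) after OGD, Cyp46a1 (0.17), Apoc2 (0.0039) and Dgat1 (0.17) after recovery, Scd1 (-0.087) and Apoc1 (-0.19) over recovery in WT and Apoc2 (-0.054) in KO. Without the 2 libraries it turned for Bscl2 (0.28) and Pdk4 (-4.20) after recovery, Apoe (0.43) and Pdk4 (-5.71) over recovery in KO and Pdk4 (-1.99) between changes; the library left has 0 counts of Pdk4, so its values depend on the prior count and are no bound. The cause was not tested. Depth left at least 143 counts per library for each of the 10 genes, while Pdk4 had as few as 0.

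Replicate numbers did not pair the samples: deviations of same-numbered libraries correlated at -0.285 to 0.161 over 18 pairs, and of differently numbered ones at -0.379 to 0.364. With the block, the Npc1 call after recovery ended (adjusted p = 0.0616).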

Other observations

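KO-recovery replicate 3 had the lowest CPM of its group for 10 of the 10 genes, while 37.9% of 11436 genes with a mean of at least 5 CPM were lowest there. The gap was wide for Abca1 (104 against 198 and 204 CPM) and Pltp (36.9 against 59.1 and 81.7) and narrow for Plin2 (356 against 359 and 373). The same library had 1588 CPM of Apoe against 3364 and 4405, and 86.7 CPM of astrocyte markers against 135 and 148. In each of the other 3 groups no library was lowest for more than 6 of the 10 genes.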
